A study of Mus musculus with 2 samples.

Results

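The cells described here shared transcripts of Slit3, Ret and Cdo1 and numbered 1441 of 16453 filtered cells from P1 mouse back skin. A cell was taken when Slit3, Ret and Cdo1 together had at least 4 unique molecular identifiers (UMIs, the tags that count single mRNA molecules). It was left out when Myb, Gfra3 and Eda, or Dcn, Dlx4 and Cldn10, reached 4 UMIs, when Shh reached 2 UMIs, or when the inner root sheath keratins Krt71, Krt25, Krt27 and Krt73 reached 20 per 10000 UMIs. All other filtered cells served as the comparison. The members were thus chosen by measured values of these same cells, and everything that follows is a description without a test.

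Single-cell RNA sequencing had been performed on tdTomato-positive keratinocytes, isolated from the dermal fraction of back skin by fluorescence-activated cell sorting. Both groups were P1 mice that carried K14-Cre, which is active in keratinocytes, and a tdTomato reporter. The PADI4 WT group had intact Padi4, and the PADI4 cKO group was Padi4 fl/fl, so that the Cre removes Padi4, an arginine citrullinating enzyme, from the keratinocytes. Each group consisted of 1 library, both placed in batch 1, so no difference between them has a replicate check.

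Slit3 encodes a secreted ligand of Robo receptors, best known from axon guidance. Ret is a receptor tyrosine kinase that binds ligands of the GDNF family through Gfra coreceptors and signals through the MAPK pathway, and Cdo1 oxidizes cysteine on the way to taurine. In a growing hair follicle the bulb holds the matrix, whose progenitors surround the dermal papilla and give rise to the hair shaft and inner root sheath, while the outer root sheath encloses these layers and is continuous with the epidermis.

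Total depth was nearly equal, at 143938990 UMIs (PADI4 WT) and 143945294 UMIs (labelled PADI4 cKO). The filters kept 8661 and 7792 cells with medians of 14109 and 15792 UMIs. The kept cells of both libraries shared 17 barcodes. Free RNA made up at most 7.88% and 6.75% of their UMIs. The libraries also differed in sex. Xist UMIs without Y-linked UMIs were found in 32.6% of the WT members but in 98.6% of the members labelled PADI4 cKO, so sex and genotype differ together in part. Ratios within cells with Xist and no Y-linked UMIs are given beside some of the values.

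The PADI4 WT library held 737 members, 8.51% of its cells (95% exact binomial interval 7.93 to 9.12%). The library labelled PADI4 cKO held 704, or 9.03% (8.41 to 9.69%). The intervals overlap, and they cover counting error only. Members had medians of 15448 and 16748.5 UMIs, slightly deeper than the other cells at 13980.5 and 15600.

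Slit3 decided membership in most of the cells. It had a UMI in 1435 members and made up 91.4% of the UMIs of the 3 genes, and 1365 members (94.7%) would have passed with Slit3 alone. Ret was detected in 735 members (51.0%, against 5.66% of the other cells) and Cdo1 in 252 (17.5%, against 4.20%). UMIs of all 3 genes were found together in only 172 members. In cells that met the inner root sheath keratin limit alone, with median depths of 12473.5 and 15200.5 UMIs, Cdo1 was found in 3.51% and 2.50%. Their sum of Slit3, Ret and Cdo1 was below 4 UMIs by the rule, so both sides of this contrast were fixed by selection. With cells thinned to 5000 UMIs, Cdo1 was found in 10.3% and 6.79% of the members and in 2.22% and 1.37% of these sheath cells. Slit3 lies at chr11:35121456-35708507 and Ret at chr6:118151748-118197744 of GRCm38.p6.

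The exclusion limits removed nearly as many cells as were kept. Of 2678 cells with at least 4 UMIs of the 3 genes, 1155 exceeded the limit of Myb, Gfra3 and Eda, and 809 of them exceeded that limit alone. Eda, which encodes the ligand ectodysplasin, reached 4 UMIs in 1067 of the excluded cells. The limit of Dcn, Dlx4 and Cldn10 was exceeded in 374 cells, that of Shh in 122 and that of the sheath keratins in 8. The excluded cells were deeper than the members, with medians of 21700.5 and 22345 UMIs, and the part of depth in their exclusion was not tested.

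Members near the lower threshold differed from those far above it. The members held a median of 12 UMIs of the 3 genes, with quartiles of 6 and 21 and a maximum of 121. With exactly 4 UMIs, 162 members had a summed Tagln level of 232 UMIs per 1000000 UMIs (CPM). The 226 cells just outside, with 3 UMIs, had 143 CPM of Tagln. By comparison, Tagln reached 1440 CPM in the 427 members with at least 20 UMIs and 21.9 CPM in the 4709 cells with none. The cells with 3 UMIs or none were counted only where they lay under every exclusion limit. Summed Tagln, a gene outside the rule, was thus higher in each of these sets with more UMIs. Clusters 2 and 8, described below, held 6.41% of the cells with none, 40.7% with 3, 48.8% with 4 and 91.6% with at least 20. The median depths of these sets were 10534, 14195.5, 12811.5 and 19227 UMIs. Sums over cells do not show whether Tagln changed gradually per cell. The parts of cell mix and depth were not tested.

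To see where the members lay among all cells, the filtered cells were clustered without the rule genes and without Cacna2d3 and Cyp24a1, the remaining marker genes of the label. Of 19 clusters, cluster 2 held 682 members (47.3%) and cluster 8 held 390 (27.1%). Members were 41.8% of the 1632 cells of cluster 2, led by Spon1, Unc13c and Slpi, and 37.1% of the 1050 cells of cluster 8. Cluster 6, led by Hhip, Col14a1 and Brinp1, held 138 members (9.58%). The remaining 231 were spread over the other clusters, of which clusters 4, 11 and 18 held none. Among these were 36 of the 204 cells of cluster 13, led by Krt75, and 31 of the 92 cells of cluster 15, whose leading genes included Krt6a and Sprr1a. On average 50.5% of the 15 nearest neighbors of a member were members, compared with 5.17% for other cells. The share of members among all cells was 8.76%. Members thus often lay near each other, but their spread over several clusters shows that they were not 1 uniform population.

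**Figure D1:**
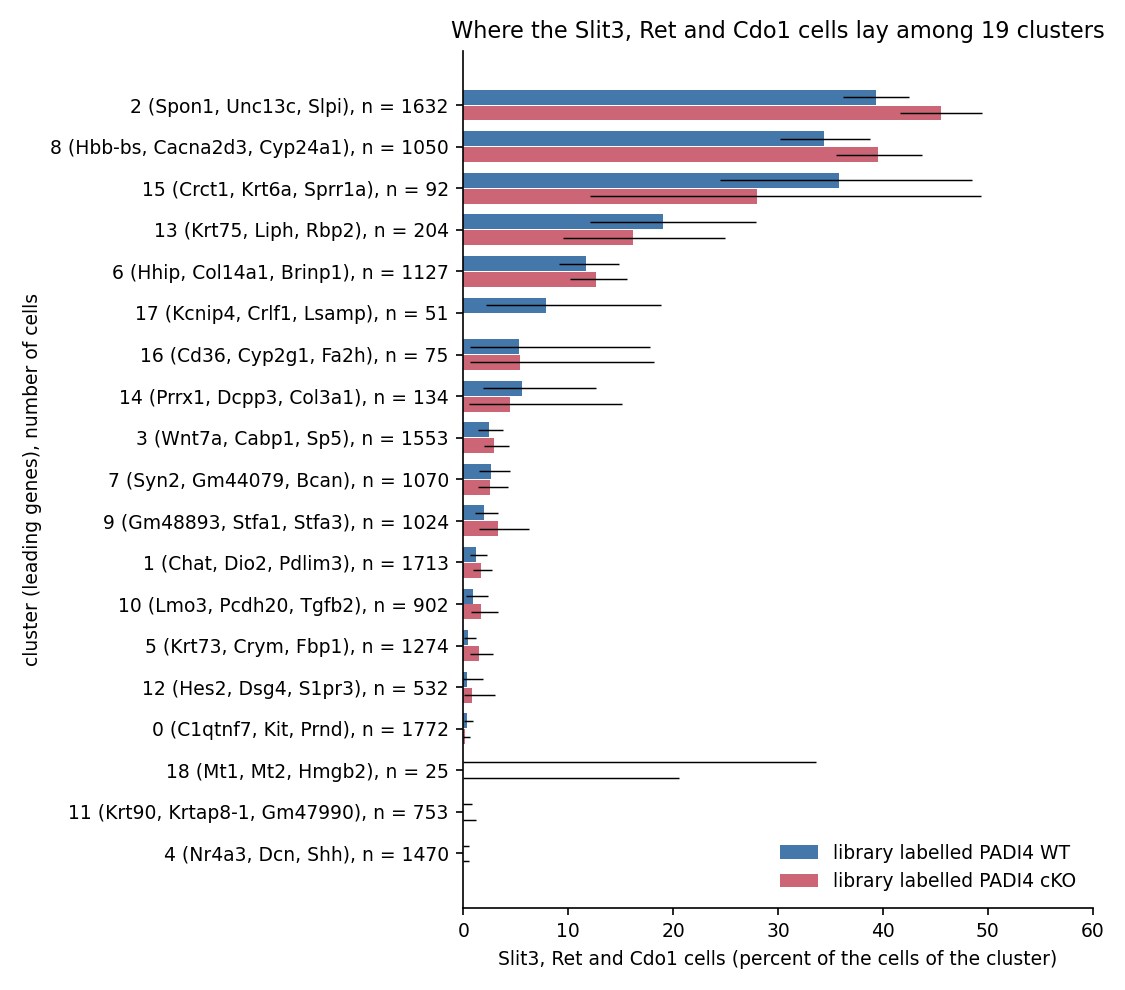
Horizontal bars give the percent of each cluster's cells that were Slit3, Ret and Cdo1 cells, per library, with exact binomial 95% intervals as lines; clusters are named by number and leading genes. Clusters 2 and 8 reach 39.3 and 34.4% in the PADI4 WT library and 45.5 and 39.6% in the library labelled PADI4 cKO.

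In the members, 473 of the 11023 genes compared (4.29%) were at least 2-fold higher than in the other cells in both libraries, and 330 (2.99%) were at least 2-fold lower. The median log2 ratio over all genes was −0.04. Each log2 ratio given below is the mean of the 2 libraries, members over other cells, from summed CPM. A gene was compared where each library had, or would have had at the level of the other cells, at least 50 UMIs in its members. Genes scarce in the other cells, such as Fgf5, thus entered only where the members were high. Counts of higher genes in the lists below include such genes. The highest ratios outside the rule genes belonged to Fgf5, a growth factor known to end the hair growth phase, and to Tagln, which encodes the actin-binding protein transgelin.

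Fgf5 (ENSMUSG00000029337, chr5:98254184-98277033) was at 23.6 CPM in the WT members and 15.1 CPM in the members labelled PADI4 cKO, against 0.861 and 0.4 CPM in the other cells. Its log2 ratio was 5.00, with intervals of 4.45 to 5.12 and 4.78 to 5.73 per library. Fgf5 UMIs were seen in 18.6% and 14.1% of the members, or 9.73% and 5.92% at 5000 UMIs per cell, but in 0.846% and 0.508% of the other cells. None of the 114 WT inner root sheath keratin cells had one, which allows a share of cells with a UMI of up to 2.63%. The cells excluded by another limit of the rule had Fgf5 at 5.78 and 2.37 CPM. Fgf5 was at 32.2 and 26.2 CPM in the members of cluster 2 and at 30.7 and 13.2 CPM in those of cluster 8. Members of cluster 6 had no Fgf5 UMI in either library. Of 20 genes for FGF ligands and receptors, a list made after values had been seen, 6 were compared. Fgf5 was the 1 higher and none was lower. Since Fgf5 reached the UMI minimum only through its level in the members, this count was fixed in part by the filter.

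Tagln (ENSMUSG00000032085, chr9:45929628-45936058) was at 872 CPM in the WT members and 789 CPM in the members labelled PADI4 cKO, compared with 43.6 and 40.7 CPM in the other cells. The log2 ratio was 4.30, with intervals of 4.27 to 4.37 and 4.23 to 4.33. Tagln was detected in 51.6% and 49.6% of the members but in 7.5% and 6.08% of the other cells. In the inner root sheath keratin cells, with median depths of 12473.5 and 15200.5 UMIs, it was found in 2.63% of the WT cells and in none of the 80 others, which allows a share with a UMI of up to 3.75%. At 5000 UMIs per cell the members' shares were 45.1% and 37.3%. The empty droplets held Tagln at 141 and 129 CPM, above the other cells and below the members.

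Tagln was not spread evenly. It reached 947 and 1025 CPM in the members of cluster 2 and 1707 and 1156 CPM in those of cluster 8. In contrast, members of cluster 6 had 9.22 and 19.2 CPM, below the other cells as a whole. The cells excluded by another limit of the rule held 273 and 226 CPM. A count of Acta2, Tagln and Olfml2b together gave the same split, since at least 4 of their UMIs were found in 47.8% of the cluster 2 members and 47.4% of the cluster 8 members but in 2 of the 138 cluster 6 members. Over all cells, 907 reached these 4 UMIs, and 522 of them (57.6%) were members, which were 36.2% of the members.

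Tagln stood among many genes of the actin cytoskeleton. Of 32 contractile genes, a list made after their values had been seen, 26 were compared, and 18 of these were at least 2-fold higher in the members and none at least 2-fold lower. Their median log2 ratio was 1.35. The myosin light chain Myl9 (log2 ratio 3.30) was at 259 and 230 CPM against 25.5 and 24.0 CPM. Acta2, smooth muscle actin, was at 146 and 94.0 CPM against 15.5 and 12.4 CPM. Tropomyosin Tpm1 had a log2 ratio of 2.95 (1004 and 867 CPM against 135 and 108 CPM), calponin Cnn1 of 2.98 and the actin- and myosin-binding Cald1 of 2.26. Cytoplasmic Actg1, at 1.12, just passed 2-fold, while Actb, at 0.82, did not.

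Markers of smooth muscle and mural cells were mixed. Of 6 such genes 2 had enough UMIs to be compared, and 1 was higher and 0 lower. Their summed level was 124 and 116 CPM in the members against 51.0 and 50.3 CPM in the other cells. Des and Rgs5 had none in the 737 and 704 members, which allows shares of cells with a UMI of up to 0.407% and 0.426% and does not limit the share that expresses them. Myh11, the smooth muscle myosin heavy chain, had 6 and 7 UMIs, and Pdgfrb had 1 in each library. The higher gene was Cspg4, the proteoglycan NG2, at 109 and 108 CPM with a log2 ratio of 1.69. The other gene compared had a log2 ratio of −0.65. Keratin genes of basal epithelium were at the levels of the other cells, with log2 ratios of −0.12 for Krt14 and 0.38 for Krt5. Collagen Col3a1 had 92 UMIs in the WT members and 3 in those labelled PADI4 cKO, and Fbn1 was the 1 fibroblast gene of 4 compared that was higher in both (log2 ratio 2.02). The part of cells captured together was not tested beyond the doublet scores, which marked 1.49% and 2.27% of the members and 3.53% and 3.98% of the other cells.

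**Figure D2:**
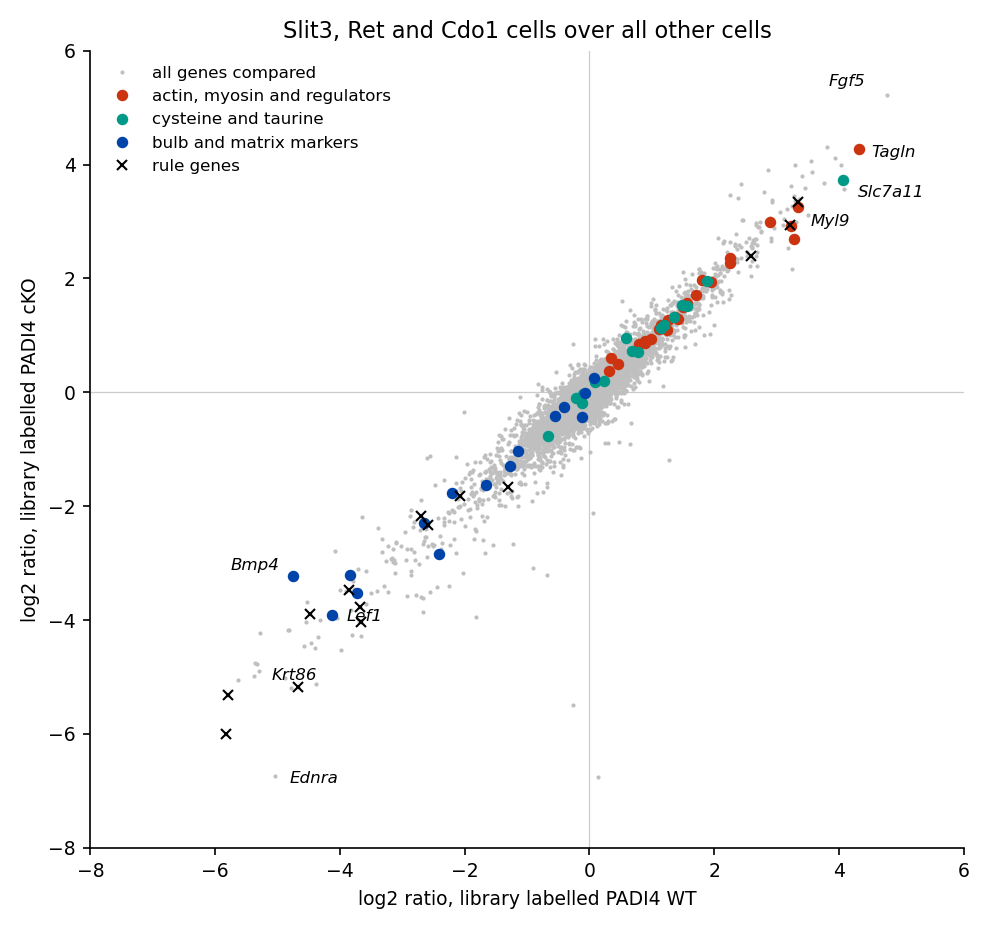
Each point is a gene, with the log2 ratio of summed CPM of Slit3, Ret and Cdo1 cells over all other cells in the PADI4 WT library on the x axis and in the library labelled PADI4 cKO on the y axis; gray points are all genes compared, colors mark gene lists and crosses the rule genes. Contractile genes lie mostly at the upper right (median 1.35) and bulb and matrix genes at the lower left (median −1.81), and the libraries lie close to the diagonal.

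The promoters of the contractile genes are shown for the CArG box, the element bound by serum response factor, a run of A or T between CC and GG that reads as the same pattern on both strands. A box with 1 different base had CC and GG intact and 1 base other than A or T between them. In the RefSeq promoters of GRCm38.p6, from 250 bases before to 50 bases after the start, 535 of 32851 (1.63%) held an exact box. An exact box or one with 1 such base was held by 3280 (9.98%). For 28 of the 32 contractile genes 32 promoters were listed, of which 6 held an exact box and 10 either kind. None was listed for Tagln. The windows below lie before the transcript start, are written 5′ to 3′ on the strand of the gene, and have the boxes, exact or with 1 different base, in capitals. They come from genes that were at least 2-fold higher in the members and show how the element is placed in each.
Myl9 chr2:156775293-156775414 (plus strand): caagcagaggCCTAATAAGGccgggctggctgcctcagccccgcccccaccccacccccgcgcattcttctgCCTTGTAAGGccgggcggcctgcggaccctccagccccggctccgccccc
Acta2 chr19:34255374-34255473 (minus strand): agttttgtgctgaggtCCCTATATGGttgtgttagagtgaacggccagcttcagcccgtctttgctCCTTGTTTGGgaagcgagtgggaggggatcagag
Cnn2 chr10:79988494-79988593 (plus strand): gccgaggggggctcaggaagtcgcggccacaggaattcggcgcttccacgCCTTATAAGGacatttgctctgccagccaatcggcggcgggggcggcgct
Myl6 chr10:128493010-128493109 (minus strand): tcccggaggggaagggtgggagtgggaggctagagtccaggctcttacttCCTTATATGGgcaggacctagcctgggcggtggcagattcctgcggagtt
Actg1 chr11:120348536-120348635 (minus strand): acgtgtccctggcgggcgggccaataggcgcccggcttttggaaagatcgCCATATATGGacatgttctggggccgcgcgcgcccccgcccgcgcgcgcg
Vcl chr14:20929148-20929220 (plus strand): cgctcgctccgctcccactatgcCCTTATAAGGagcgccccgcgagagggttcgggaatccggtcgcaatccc

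In these windows Cnn2, Myl6, Actg1 and Vcl each held 1 exact box, Myl9 held 1 exact box and 1 box with a different base, and Acta2 held 2 of the latter kind. The nearest box started 34 bases before the start of Acta2 and 50 bases before that of Myl6. Windows of Acta1, with an exact box, and of Tpm3 and Myl12a, with boxes of 1 different base, are not shown. Among the genes shown, chosen for a box and for their ratio, those with an exact box were not simply those with the highest ratios. Myl9 had a log2 ratio of 3.30 and Acta2 of 3.08, but Cnn2 (1.89), Vcl (1.35), Myl6 (1.35) and Actg1 (1.12), each with an exact box, lay well below them. A match of letters is a description and not a binding site, and no match would say only that these letters are not in this window.

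The label calls these cells bulb cells, which was compared with 16 genes of the bulb and matrix. None of the 16 was higher in the members, 11 were at least 2-fold lower, and the median log2 ratio was −1.81. Shh, lower as well, was itself limited by the rule, and without it 10 of 15 were lower, with a median of −1.64. Lef1, the Wnt-responsive factor of matrix and precortex, was at 27.2 and 32.5 CPM in the members against 476 and 491 CPM in the other cells. Bmp4 (log2 ratio −3.98), the homeobox factor Msx1 (−3.62) and Wnt5a (−3.52) were similarly low. Hoxc13 (−0.34), Cux1 (−0.48), Trps1 (−0.28), Jag1 (−0.04) and Dlx2 (0.16) were near the level of the other cells. Cells that met the Slit3, Ret and Cdo1 limit but were excluded had Lef1 at 219 and 239 CPM, so the exclusions took out the cells with more Lef1. The bulb label therefore goes against most of these markers, and the cells are named by their rule here.

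Genes of the lower proximal cup, the pocket of progenitors at the base of the growing follicle, were mixed. Lgr5, a Wnt-associated receptor of follicle stem cells and progenitors, was at 547 and 563 CPM against 226 and 253 CPM (log2 ratio 1.21). It was detected in 89.96% and 91.8% of the members and in 43.6% and 49.97% of the other cells. Among the inner root sheath keratin cells, the shares with Lgr5 were 6.14% and 8.75%. At 5000 UMIs per cell its shares were 80.7% and 79.9% in the members and 34.5% and 39.7% in the other cells. In those sheath cells they were 2.22% and 2.74%. The cells excluded by another limit of the rule had Lgr5 in 90.6% and 88.4% of cells (74.3% and 70.0% at 5000 UMIs). Ptch1, the Hedgehog receptor, had a log2 ratio of 0.62 and its target Gli1 of 0.63. Wnt10b (−4.50), Sp5 (−3.73), Frem1 (−2.05) and Edar (−1.75) were lower. Of the 9 genes compared, 1 was thus at least 2-fold higher and 4 lower.

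Among 12 outer root sheath genes compared, 2 were higher, 3 were lower, and the median was 0.12. The higher ones were Tbx1, a transcription factor of follicle stem cells, at 243 and 246 CPM against 81.6 and 75.7 CPM, and Igfbp5 (1.44). Sox9 (0.16) and Krt15 (0.72) stayed within 2-fold, and Nfatc1 (−1.20), Lmo3 (−1.92) and Postn (−2.01) were lower. Krt17, a keratin of the follicle sheath, was at 3606 and 3437 CPM against 1561 and 1472 CPM. Differentiated lineages were low. Of 8 inner root sheath genes compared 6 were lower, but 4 of these were keratins that the rule limited, which leaves Krt28 (−4.43) and Tchh (−1.89). Padi3 was the 1 higher (1.34), and all 3 hair cortex and cuticle genes compared were lower. Melanocyte genes (2 of 3) and sebaceous gland genes (2 of 5) were also lower, with none higher, and none of the endothelial, immune or erythroid markers had enough UMIs to be compared.

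Several sheath and simple-epithelium keratins were higher, in different members. Of 13 keratins in a list made after values had been seen, 10 were compared and 6 were higher. Krt19 (log2 ratio 3.73) was at 58.6 and 66.8 CPM in the members of cluster 2 and at 29.9 and 26.3 CPM in those of cluster 8. Krt6a (3.64) came from few cells, since 2.71% and 1.28% of the members had a UMI of it, and it reached 128 and 174 CPM only in members outside clusters 2, 6 and 8. Krt75, of the companion layer, was more widespread, in 19.5% and 22.6% of the members (9.59% and 10.1% at 5000 UMIs per cell). It was found in 12.0% and 12.5% of the other cells (5.14% and 5.06%) and in 5.26% and 8.75% of the inner root sheath keratin cells. The cells excluded by another limit of the rule had it in 31.5% and 28.6% of cells (12.7% and 7.75%). Among the members, Krt75 was at 694 and 436 CPM outside clusters 2, 6 and 8, 43.1 and 32.9 CPM in cluster 8 and 12.3 and 15.4 CPM in cluster 2. Its log2 ratio was 1.93 over all members but −0.35 when members in clusters 2 and 8 alone were taken. Krt8 was higher (2.47), while the Merkel cell markers Atoh1, Krt20, Isl1 and Sox2 had no UMI in the members.

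Genes that act with the products of Slit3 and Ret were examined next. Of 10 Slit and Robo genes compared, Slit3 was the 1 higher, by selection, and Robo1 and Robo2 the 2 lower. Robo1, a receptor of Slit ligands, was at 133 and 175 CPM in the members against 821 and 1022 CPM, and Robo2 at 133 and 119 CPM against 323 and 400 CPM. Slit2 was at 12.2 and 13.2 CPM in the members (log2 ratio 0.22).

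In the Ret and GDNF family list 5 of 13 genes were higher and 3 were lower, with a median of 0.54. Ret was higher and Gfra3 lower by selection, and without them 4 of 11 were higher and 2 lower. The 4 higher ones were Dusp6 (2.05), a phosphatase that restrains ERK, Spry4 (1.83), an inhibitor of receptor tyrosine kinase signaling, and the transcription factors Etv4 (1.43) and Etv5 (1.39), all known to respond to MAPK signaling. Dusp6 was at 130 and 133 CPM against 32.0 and 31.4 CPM. The 2 lower ones were Dok4 (−1.82) and Ncam1 (−1.20). The coreceptors were scarce, since Gfra1 had 25 and 27 UMIs in all members and Gfra2 3 and 10. Of the ligands, Gdnf had 1 and 4 UMIs and Artn 4 and 6, while Nrtn was at 96.2 and 110 CPM (log2 ratio 0.54).

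Cdo1 uses cysteine, and genes of cysteine and taurine metabolism were higher in 8 of 17 cases, with none lower and a median of 0.77. Cdo1 itself is 1 of the 8 through the rule, and without it 7 of 16 were higher, with a median of 0.76. Slc7a11, the cystine importer, had the log2 ratio 3.90, at 9.02 and 6.18 CPM against 0.535 and 0.466 CPM. The taurine transporter Slc6a6 (1.91) was at 191 and 194 CPM against 52.0 and 50.2 CPM. Both subunits of the first enzyme of glutathione synthesis were higher, the catalytic Gclc at 451 and 378 CPM against 153 and 132 CPM and the modifier Gclm at 291 and 261 CPM against 131 and 119 CPM. Cbs (1.34), Ethe1 (1.5) and Slc1a4 (1.19) were the other higher members. Csad, which follows Cdo1 on the way to taurine, stayed within 2-fold (0.21).

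The marker Cyp24a1, which inactivates vitamin D, was at 9.44 and 15.5 CPM against 1.55 and 2.68 CPM (log2 ratio 2.57, chr2:170482957-170497145). Vdr, the vitamin D receptor, was at 425 and 467 CPM against 112 and 125 CPM (1.91). The retinol-oxidizing Dhrs9 (4.03) was the remaining higher gene of 11 vitamin D and retinoid genes compared, whose median was 0.04, and Rarb (−1.97) was the 1 lower. Cyp24a1 was found in 8.28% and 13.9% of the members (2.29% and 5.78% at 5000 UMIs per cell) and in 0.877% and 1.25% of the inner root sheath keratin cells, of which 1 in each library had a UMI. The cells excluded by another limit of the rule had Cyp24a1 at 8.89 and 14.2 CPM and in 10.7% and 15.1% of cells (4.71% and 5.66% at 5000 UMIs). Vdr was far more widespread, in 90.2% and 94.0% of the members and in 54.5% and 60.3% of the other cells. The cells excluded by another limit had Vdr in 89.7% and 90.4% of cells, at 299 and 310 CPM.

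Cacna2d3, an accessory subunit of voltage-gated calcium channels, was at 26.1 and 35.3 CPM against 11.2 and 13 CPM (log2 ratio 1.33, chr14:28904943-29722775). It was the 1 higher gene of 7 calcium channel genes compared. It was not a general property of the members. In members of cluster 8 it was at 93.1 and 97.2 CPM and in 25.3% and 22.7% of the cells, whereas members of cluster 2 had 8.25 and 9.57 CPM, below the level of the other cells. The cells excluded by another limit of the rule, at 56.5 and 66.2 CPM, had more Cacna2d3 than the members as a whole.

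Among signaling genes, the forkhead factor Foxe1, a Hedgehog target in follicles, was at 240 and 237 CPM against 39.0 and 37.2 CPM (2.65), and it and the Hedgehog antagonist Hhip (1.48) were the 2 higher of 14 Hedgehog genes. Hhip was at 96.8 and 51.5 CPM in the members of cluster 6. Wnt response genes were lower in 17 of 29 cases, with a median of −1.26. These included the feedback inhibitors Axin2, at 6.15 and 6.34 CPM against 43.5 and 44.4 CPM, Nkd2 (−4.75), Notum (−5.05) and Wif1 (−4.52). Tcf7l1, a repressor of Wnt targets, and Lgr5 were the 2 higher. Basement membrane genes were higher in 4 of 16 cases, led by collagen IV, with Col4a1 at 654 and 582 CPM against 167 and 150 CPM and Col4a2 at 329 and 312 CPM against 96.7 and 91.3 CPM. None of 12 Notch genes passed 2-fold. Of 16 BMP and Id genes 3 were lower, among them the ligand Bmp2 (−4.28), and none higher.

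Transcription factors of the shaft and sheath lineages were mostly lower. Of 45 compared, 20 were at least 2-fold lower, with a median of −0.86. Myb and Dlx4 among these were limited by the rule, and without them 18 of 43 were lower, with a median of −0.59. These included Sox21 (−3.65), Foxq1 (−3.14), Ovol1 (−2.62), Mycl (−2.54) and the differentiation factors Klf4 (−1.57) and Grhl3 (−1.95). Tbx1 and Vdr were the 2 higher. Of 15 desmosome and adherens junction genes 2 were lower, and of 4 epidermal differentiation genes none passed 2-fold.

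Cell cycle genes were mostly at the level of the other cells. Of 42 S phase genes none passed 2-fold in either direction (median 0.01), and of 52 genes of G2 and mitosis 1 was lower (median −0.28). Mki67 was at 379 and 292 CPM against 496 and 412 CPM. The cell cycle inhibitor Cdkn1a was lower (−1.71), at 32.1 and 16.9 CPM. Of 16 genes that respond to cell dissociation, 2 were higher, Ier3 (1.39) and Nr4a1 (1.22), and none lower, and the part of dissociation in the ratios was not tested.

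At the other end, Ednra, the endothelin A receptor, had the lowest ratio, with 9 and 2 UMIs in all members against 26.4 and 21.8 CPM in the other cells. Mt4 (−5.18), Krt86 (−5.10), Cdh6 (−5.06), Scube1 (−4.99) and Lmo2 (−4.76) were similarly low. At the upper end Olfml2b (4.06), Ddit4l (4.01), Matn4 (3.82), Anxa3 (3.8), Ggt1 (3.52), which cleaves extracellular glutathione, and Plaur (3.33), the urokinase receptor, followed Fgf5, Tagln and Dhrs9.

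**Figure D3:**
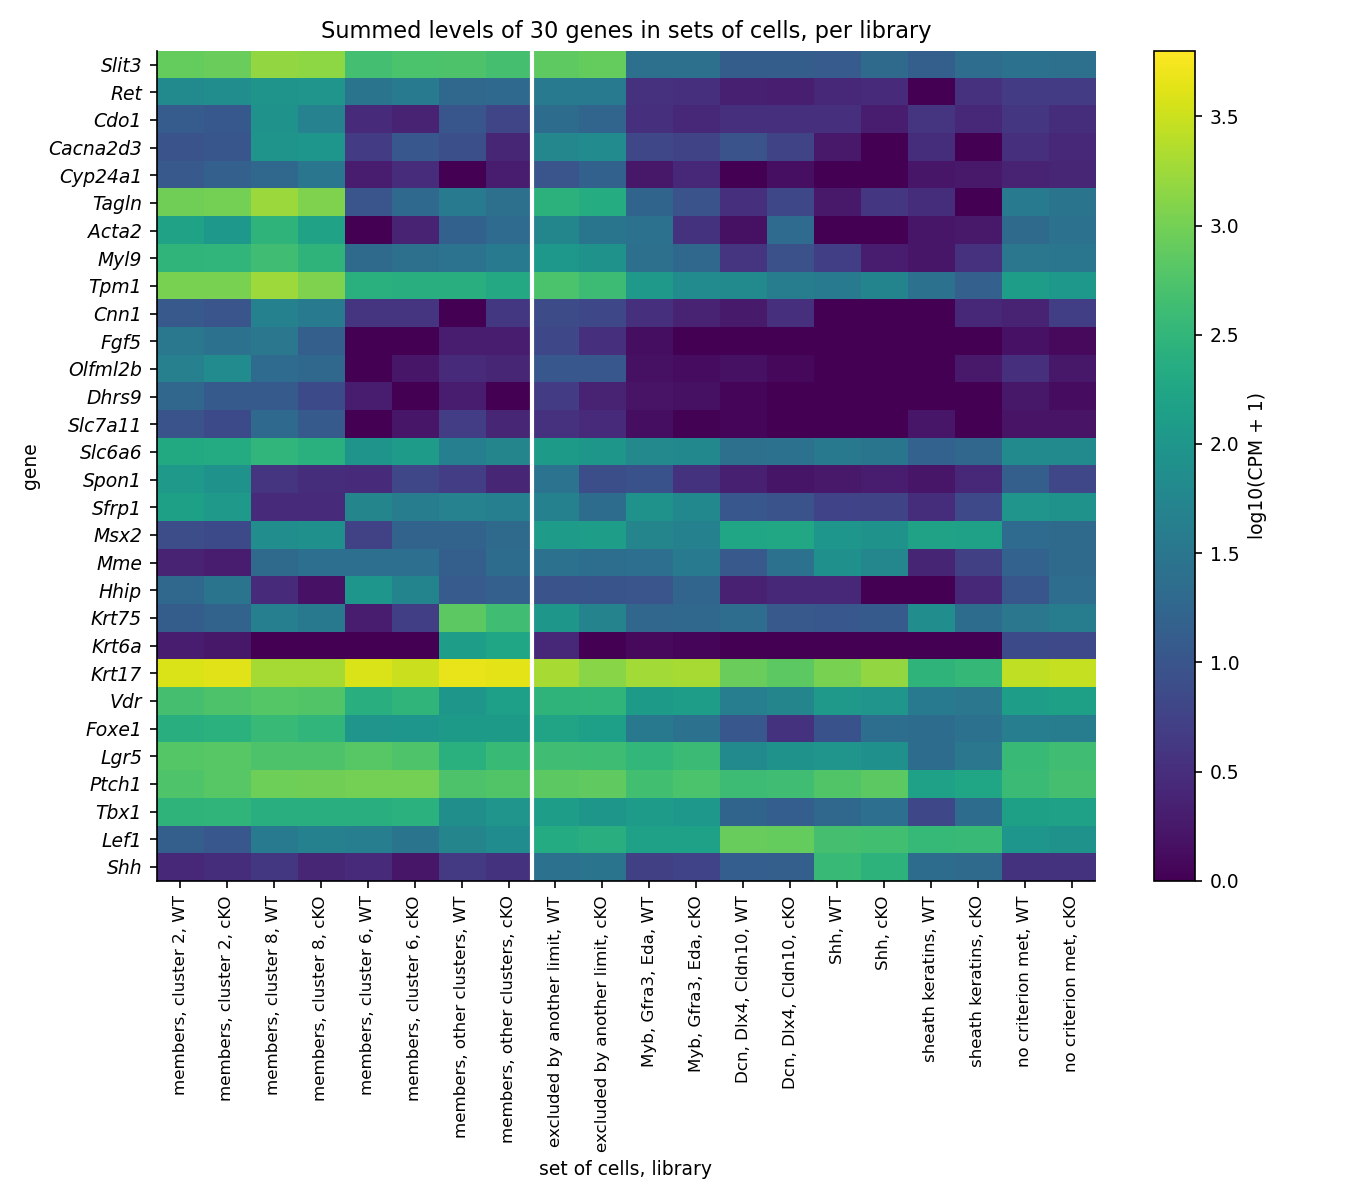
The heat map gives log10(CPM + 1) of 30 genes (rows) in sets of cells (columns), each per library; a white line separates sets of Slit3, Ret and Cdo1 cells on the left from other cells on the right. Tagln is at 947 and 1025 CPM in cluster 2 members and 1707 and 1156 CPM in cluster 8 members but at 9.22 and 19.2 CPM in cluster 6 members, and Cacna2d3 is highest in cluster 8 members.

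The members of clusters 2 and 8 shared Tagln, Fgf5 and Vdr and differed in other genes. Since these clusters were made from the expression of the same cells, their differences are a description. Of 7480 genes, 104 (1.39%) were at least 2-fold higher in the members of cluster 8 in both libraries, and 142 (1.90%) were lower. Of 8 bulb and matrix genes compared, 5 were higher in cluster 8 and 1 was lower, with a median of 1.74. Cux1 was at 2224 and 2429 CPM in the cluster 8 members and at 322 and 378 CPM in those of cluster 2. Msx2 was at 71.0 and 79.0 CPM against 6.96 and 6.25 CPM, and Dlx3 at 76.8 and 66.1 CPM against 20.2 and 21.3 CPM. Lef1 was low in both, at 34.9 and 46.1 CPM against 13.1 and 9.76 CPM. Beside the other cells as a whole, Cux1 (1221 and 1523 CPM there) and Dlx2 (31.7 and 36.1 CPM, against 71.8 and 78.0 CPM in the members of cluster 8) were higher in these members, and Msx2 (102 and 108 CPM) and Dlx3 (103 and 111 CPM) were not.

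Cdo1 and Cacna2d3 followed cluster 8 as well. Cdo1 was at 89.6 and 47.4 CPM there and at 11.8 and 9.96 CPM in cluster 2, although the rule used it. Mme, a membrane peptidase, had the highest ratio, at 19.8 and 23.4 CPM in cluster 8 against 1.29 and 0.976 CPM. The genes lower in cluster 8 were led by Sfrp1, a secreted Wnt inhibitor, at 1.94 and 1.84 CPM against 143 and 110 CPM. Of 10 outer root sheath genes 4 were lower in cluster 8, with a median of −0.68. Sox9 was at 80.7 and 69.5 CPM against 256 and 242 CPM. Epithelial genes did not differ by 2-fold in any of 10 cases. Cluster 8 also held many excluded cells, since 513 of its 911 cells with at least 4 UMIs of Slit3, Ret and Cdo1 exceeded the limit of Myb, Gfra3 and Eda.

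Next, the members were set against cells that met exactly 1 of the other criteria. From the Myb, Gfra3 and Eda cells they differed the least, with 347 genes (3.14%) at least 2-fold higher and 352 (3.18%) lower of 11053. Against the Dcn, Dlx4 and Cldn10 cells 978 genes (8.89%) were higher and 443 (4.03%) lower of 10997. Against the Shh cells these numbers were 771 (7.01%) and 583 (5.30%) of 11005, and against the inner root sheath keratin cells 1737 (15.7%) and 822 (7.41%) of 11086. The sets differ in their number of cells, and the part of this in the counts was not tested. Tagln was among the highest genes against each of the 4 sets. It was at 15.8 and 8.29 CPM in the Myb, Gfra3 and Eda cells, 2.37 and 5.68 CPM in the Dcn, Dlx4 and Cldn10 cells and 0.804 and 2.98 CPM in the Shh cells. Fgf5, with 280 and 186 UMIs in the members, had 6 and 0 UMIs in the first set and none in the second, so no fold is given. The cystatin Stfa1, with the lowest ratio against the first set, had 21 and 0 UMIs in the members and 1032 and 82 UMIs there.

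The last comparison, between the libraries, concerns the PADI4 cKO label. Padi4 itself was rare, with 7 UMIs in the WT members and 9 in the members labelled PADI4 cKO, and 106 and 86 UMIs in the other cells. Reads from the 3′ end do not show which exons a transcript has lost, so these counts do not check the label. Padi3 had 105 and 104 UMIs (log2 ratio −0.07, interval −0.47 to 0.34), Padi1 6 and 1, Padi6 1 and 7, and Padi2 none, which allows up to 0.407% and 0.426% of the members to have a UMI.

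Of 10821 genes with at least 100 UMIs in the members, 132 (1.22%) had a log2 ratio above 0.5, the library labelled PADI4 cKO over the WT library, and 299 (2.76%) a ratio below −0.5. In the other cells these shares were 1.59% and 4.22% of 14935 genes. The median ratio of the members was −0.02. Of the 431 genes past 0.5 in the members, 398 had counting intervals that excluded 0, and 110 were past 0.5 in the same direction in the other cells. With 1 library per group, such an interval says nothing about the spread between animals.

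With only cells that had Xist and no Y-linked UMIs, 240 WT members and 694 labelled PADI4 cKO remained. Of 9982 genes, 256 were then above 0.5 and 223 below −0.5. The part of the smaller number of WT cells in these counts was not tested. The genes furthest apart were of different kinds. Hbb-bs, a hemoglobin gene, had no UMI in the WT members and 200 in the others, of which 196 came from 1 cell. Sprr1a similarly owed 97 of 104 UMIs to 1 cell. Gm10260 had 177 and 1909 UMIs, in 60 of 737 and 609 of 704 members, with a log2 ratio of 3.37 that was 3.58 in the other cells. Hmga1b (2.49), which is nearly identical to Hmga1 so that reads may be split between them, also had a like ratio in the other cells (2.34), as did Gm8797 (−2.83 and −2.81) and Tmem232 (2.50 and 2.44). These differences were seen alike inside and outside the members. Among cells with Xist and no Y-linked UMIs, the member ratio was 7.88 for Gm10260, 4.16 for Hmga1b and −0.54 for Gm8797, which differ from the values over all members.

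For several other low ratios, many of the WT UMIs lay in small clusters. Cluster 17 held 51 cells, all of the WT library, of which 4 were members. These 4 carried 152 of the 257 Meg3 UMIs of the WT members, 88 of the 134 of Prkg1 and 145 of the 193 of Cstdc5. For Cstdc5, 122 of the 193 lay in 1 cell. Of the 129 Wfdc18 UMIs, 107 came from cluster 15. These ratios were below 0 elsewhere too. In the other cells they were −3.42 for Cstdc5, −1.19 for Prkg1, −0.54 for Meg3 and −0.34 for Wfdc18. In the members of clusters 2 and 8, Cstdc5 was at −1.31 and −3.37 and Prkg1 at −3.82 and −0.91. Meg3 was at −0.23 and −0.56 there, and Wfdc18 at −1.69 and −2.14. Isg15, an interferon-induced gene, was at 9.69 and 1.79 CPM (log2 ratio −2.41, or −3.84 among cells with Xist and no Y-linked UMIs), and 40 of its 115 UMIs in the WT members came from 1 cell. Bmp4 was at 1.94 and 6.58 CPM in the members, and its ratio of 1.74 was 2.0 in cluster 8 and −1.31 in cluster 2, where few UMIs were counted.

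Of the 5 markers of the label, Cyp24a1 was past 0.5 between the libraries. Slit3 had a log2 ratio of 0.10 and Ret of 0.17. Cdo1 was at −0.47 over all members, and at −0.24 in cluster 2 and −0.92 in cluster 8. The rule used these 3 genes. Cacna2d3 was at 0.44 over all members but at 0.21 in cluster 2 and 0.06 in cluster 8. Cyp24a1 had a ratio of 0.71 (interval 0.37 to 1.07), which was 0.36 in cluster 2, 0.80 in cluster 8 and 0.79 in the other cells. Of the 26 contractile genes none was above 0.5 and 1 was below −0.5, with a median of −0.07. That 1 was Acta2 (−0.63), at −0.54 in cluster 2, −0.95 in cluster 8 and −0.32 in the other cells. In cluster 2 as well, 1 of the 26 was below −0.5 and none above 0.5, and the median was 0.06. In cluster 8 the median was −0.28, and 5 were below −0.5, namely Acta2, Tpm1 (−0.57), Tagln (−0.56), Tpm2 (−0.55) and Myl9 (−0.53). Tagln was at −0.14 over all members and at 0.11 in cluster 2. At least 4 UMIs of Acta2, Tagln and Olfml2b were found in 57.1% of the WT members of cluster 8 (49.3 to 64.6%) and in 40.0% of those labelled PADI4 cKO (33.5 to 46.8%), whose median depths were 15190 and 17250.5 UMIs. Fgf5 had a ratio of −0.64, which was −0.30 in cluster 2, −1.21 in cluster 8 and −1.10 in the other cells. None of the S phase genes passed 0.5, and their median was 0.27.

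**Figure D4:**
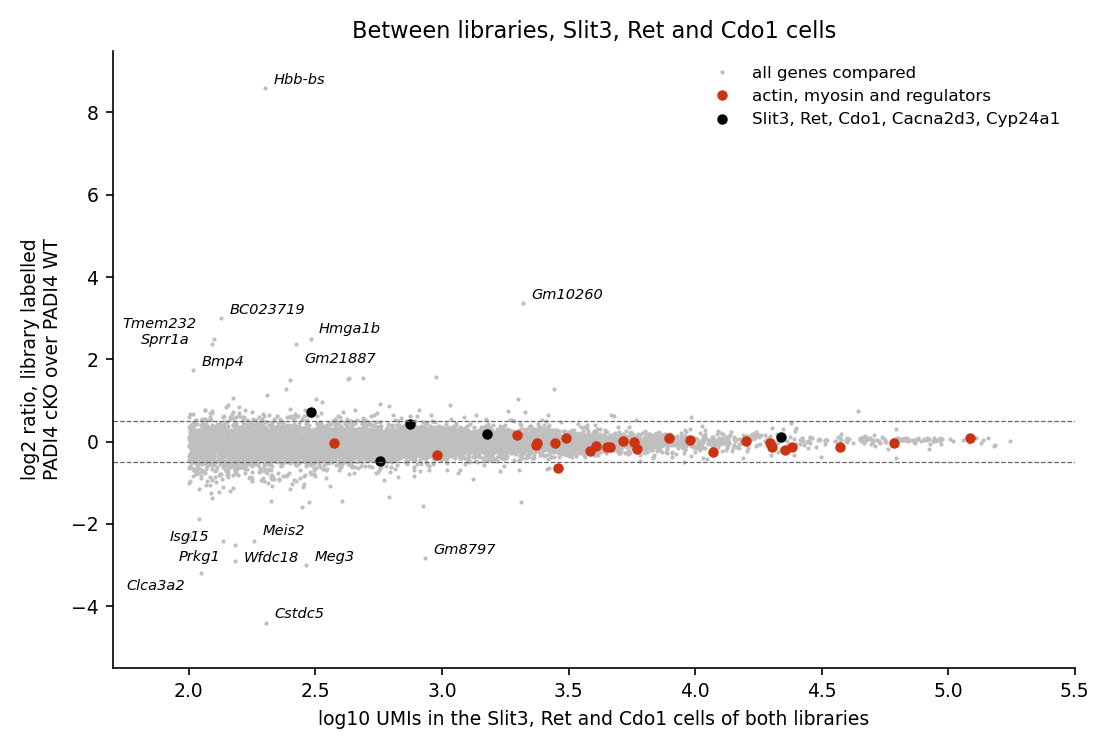
Each point is a gene with at least 100 UMIs in the Slit3, Ret and Cdo1 cells, with log10 of its UMIs in both libraries on the x axis and the log2 ratio of the library labelled PADI4 cKO over the PADI4 WT library on the y axis; dashed lines mark 0.5 and −0.5, and sex-linked genes are left out. The contractile genes (red) have a median of −0.07, and the markers of the label (black) lie between −0.47 (Cdo1) and 0.71 (Cyp24a1).

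The members were divided differently between the clusters in each library. Those of cluster 2 made up 4.43% of the WT cells (4.01 to 4.89%) and 3.82% of the cells labelled PADI4 cKO (3.41 to 4.27%), and those of cluster 8 made up 1.96% (1.68 to 2.28%) and 2.82% (2.47 to 3.22%). The intervals of cluster 8 do not overlap, but they cover the counting of cells alone. The clusters as a whole differed in the same directions. Cluster 2 held 977 WT cells and 655 labelled PADI4 cKO, and cluster 8 held 494 and 556, of 8661 and 7792 cells. Members were 39.3% and 45.5% of the cells of cluster 2 and 34.4% and 39.6% of those of cluster 8. The division is therefore not particular to the members. Several genes that differ between the clusters had other ratios within them than over all members. Adamts9, higher in cluster 8 than in cluster 2, had a ratio between the libraries of 1.04 over all members, 0.52 in cluster 2 and 0.80 in cluster 8. Msx2 had a ratio of 0.53 over all members but −0.15 and 0.15 within these clusters. Sfrp1 (−0.60), which was higher in cluster 2 than in cluster 8, was at −0.37 and −0.11 within them, and Spon1 (−0.70) at −0.41 and −0.38.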

How the data were processed

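The authors deposited UMI counts per gene and droplet barcode, without normalization and with empty droplets included, made with Chromium 3′ v3.1 reads. The submitters' processing notes name Cell Ranger, Scanpy and mm10. Droplets with 2000 to 60000 UMIs, 1000 to 8000 genes and at most 20% mitochondrial UMIs were kept here. Barcodes with fewer than 100 UMIs were taken as empty. Counts were summed over the cells of a set, per library, and scaled to CPM. Log2 ratios had 0.5 UMI added to each sum, with exact conditional binomial 95% intervals that cover counting error only, since no replicate exists. Genes were compared at 50 UMIs per library between sets and at 100 UMIs in all between libraries. Clustering used 1000 variable genes, 50 principal components, 15 neighbors and Leiden resolution 1, in Scanpy 1.11.5 with leidenalg 0.10.2. Scrublet called 1 WT cell at its automatic threshold, so the value of the second library, 0.207, was applied to both after this was seen, and doublets were kept. Other tools were Python 3.11.15, NumPy 2.4.6, pandas 2.3.3, SciPy 1.17.1 and matplotlib 3.10.9. Ratios were tested on simulated data.

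The members, lists and alternatives were chosen with earlier results of these data known, and the contractile, keratin and FGF lists after values had been seen. Genes were named by fixed rules, namely the rule genes and markers, the 20 highest and 10 lowest member ratios, up to 4 per list by level and by ratio, the 8 highest and 8 lowest between libraries and the 6 at each end against each similar set. Genes beyond these were named after their values were seen. Alternatives covered the UMI limits and thresholds of the rule, thinning, doublets, the gene minima, Xist-only cells, clusters 2 and 8 alone, and Ret and Cdo1 without Slit3.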

Additional observations from a re-analysis of the deposited data

How the results depend on the processing

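The share of members moved with the rule. At a minimum of 3 UMIs it was 9.84% (WT) and 10.5% (labelled PADI4 cKO), 6.75% and 7.32% at 6 UMIs, 0.947% and 1.10% with Ret and Cdo1 alone, and 6.40% and 6.65% with members in clusters 2 and 8 alone, an alternative chosen after seeing the data. The WT share was 10.7% among cells with Xist and no Y-linked UMIs. Among cells of at least 5000 UMIs, thinned to 5000, it was 9.15% with lowered limits. These were 2 UMIs for Slit3, Ret and Cdo1, for Myb, Gfra3 and Eda and for Dcn, Dlx4 and Cldn10, and 1 UMI for Shh. Of the cells so taken in both libraries, 75.2% were members. With members in clusters 2 and 8 alone 497 of 10478 genes were at least 2-fold lower, and with thinned cells 215 of 8332 (330 of 11023 as reported). Between the libraries 179 of 5660 genes lay below −0.5 with Ret and Cdo1 alone (299 of 10821 as reported). Among the Xist cells, with 240 WT members and 694 labelled PADI4 cKO, 256 of 9982 lay above 0.5 (132 of 10821). A lower UMI minimum gave 236 above and 503 below of 11947, and a higher one 81 and 149 of 9423. Krt75 had a log2 ratio of −0.35 with members in clusters 2 and 8 alone, against 1.93. Of the summary results, 103 alternatives stayed close to the reported value and 18 moved, under alternatives that by construction take other cells or other genes. The log2 ratio ranged from 4.19 to 4.74 for Tagln, from 4.10 to 5.44 for Fgf5, from −5.49 to −3.64 for Lef1 and, more widely, from 1.14 to 3.0 for Cacna2d3. The median ranged from 1.30 to 1.75 for the contractile list and from −2.14 to −1.40 for the bulb and matrix list. No paired analysis was possible because each group has 1 library.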
